A study of Mus musculus with 6 samples.

Results

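The S100 calcium-binding proteins were examined in Naive CD4+ T cells and in the Th17 and Th1 cells derived from them. The genes were chosen by symbol, as the 8 family members *S100a1*, *S100a4*, *S100a6*, *S100a8*, *S100a9*, *S100a10*, *S100a11* and *S100a13*, out of 24223 genes in the RNA-Seq count files. The choice was made with their levels in the 3 cell types already known. Their levels and differences are therefore given as a description, with standard errors and without p-values.

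RNA-Seq was performed on 6 libraries, 2 replicates each of Naive, Th17 and Th1 cells. Naive cells (CD4+CD44-) came from the pooled lymph nodes and spleens of C57BL/6 mice aged 1 to 2 months, and were separated with a kit for CD4+CD62L+ T cells. Th1 and Th17 cells were grown from these Naive cells with anti-CD3 and anti-CD28 stimulation and anti-IL-4. Each Th culture therefore differed from Naive by activation and days in culture as well as by cytokines. Th1 cultures also received IL-12 and IL-2, and Th17 cultures received anti-IFN-γ, TGF-β, IL-6, IL-1β and IL-23. The methods describe no sorting of the Th cells after culture, so each Th library is a whole culture. In such bulk samples, fewer cells of a type and less RNA per cell cannot be told apart.

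S100 proteins are small proteins with a pair of EF hands, the loops that bind calcium, and most act as dimers that change shape and expose a binding surface when calcium rises. Inside cells they bind partners such as annexins, cytoskeletal proteins and ubiquitin ligase adaptors. S100A8 and S100A9 join into calprotectin, which binds zinc and manganese, is a main cytosolic protein of neutrophils and is released at sites of inflammation.

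The depth was 17742158 to 69080017 counts per library, and replicate 1 was the deeper library in each cell type. Of the 24223 genes, 13607 had enough counts to be tested, including all 8 S100 members. All 8 CD4 T cell markers examined (*Cd3d*, *Cd3e*, *Cd3g*, *Cd4*, *Lck*, *Cd5*, *Cd28* and *Cd247*) exceeded 10 CPM in all 6 libraries, with summed levels of 2928 to 4462 CPM. CPM is the number of counts of a gene per 1000000 counts of its library after TMM scaling, and 3 counts, taken as the limit of detection, correspond to 0.0440 to 0.190 CPM depending on depth. That limit covers counting error only.

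All 8 members lie on chromosome 3 (GRCm38, GENCODE vM21). A group of 6 stands within 184688 bases, in the order *S100a1* (chr3:90511034-90514392, minus strand), *S100a13* (chr3:90514435-90524581, plus), *S100a4* (chr3:90603771-90606045, plus), *S100a6* (chr3:90612882-90624181, plus), *S100a8* (chr3:90668978-90670035, plus) and *S100a9* (chr3:90692632-90695721, minus). *S100a11* (chr3:93520488-93526287, plus) and *S100a10* (chr3:93555080-93564643, plus) form a second group, 2824766 bases beyond *S100a9*. *S100a8* and *S100a9* are separated by 22596 bases with no other S100 gene between them. *S100a1* and *S100a13* stand head to head and overlap by 98 bases in RefSeq, where reads counted without strand cannot be told apart. *S100a4* shares 302 exon bases with a readthrough gene model, *Gm42674*, which is not among the genes of the count files.

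The sequences upstream of *S100a8*, *S100a9*, *S100a4* and *S100a6* are shown. These 4 genes were picked because, after TMM scaling, they had a higher level in both Th17 libraries than in every other library. With library size alone *S100a1* did so as well. The sequences shown were taken from RefSeq windows on GRCm38.p6, which matched 7 of the 8 members (all but *S100a10*). Each starts 250 bases before the RefSeq gene start. They are written in the direction of transcription and stop where the GENCODE gene model begins. The coordinates are chr3:90668821-90668977 (plus strand) for *S100a8*, chr3:90695722-90695971 (minus) for *S100a9*, chr3:90603520-90603769 (plus) for *S100a4* and chr3:90612644-90612881 (plus) for *S100a6*. Capitals mark GCAAT on either strand, the core of the motif bound by C/EBP factors, some of which act in myeloid cells. Capitals also mark TATAAA, a core element of some promoters at which transcription machinery assembles.
S100a8: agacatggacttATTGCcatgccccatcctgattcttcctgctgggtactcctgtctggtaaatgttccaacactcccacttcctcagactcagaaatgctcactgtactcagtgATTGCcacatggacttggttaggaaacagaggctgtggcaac
S100a9: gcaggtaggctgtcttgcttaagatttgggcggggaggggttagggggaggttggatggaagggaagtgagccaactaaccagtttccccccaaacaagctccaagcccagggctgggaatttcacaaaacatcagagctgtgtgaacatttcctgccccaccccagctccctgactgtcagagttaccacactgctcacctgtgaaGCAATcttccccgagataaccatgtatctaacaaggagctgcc
S100a4: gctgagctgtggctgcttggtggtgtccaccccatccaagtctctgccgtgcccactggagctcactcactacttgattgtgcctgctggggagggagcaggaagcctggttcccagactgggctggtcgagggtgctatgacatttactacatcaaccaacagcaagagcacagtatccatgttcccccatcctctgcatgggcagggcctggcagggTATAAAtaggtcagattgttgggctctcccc
S100a6: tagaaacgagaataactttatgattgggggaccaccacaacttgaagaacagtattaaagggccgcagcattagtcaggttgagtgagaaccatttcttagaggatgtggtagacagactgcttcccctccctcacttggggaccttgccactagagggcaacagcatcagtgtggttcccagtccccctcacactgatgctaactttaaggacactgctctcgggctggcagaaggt

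GCAAT or its reverse complement began 238 and 135 bases before the start of *S100a8* and 43 bases before that of *S100a9*, and none of the other 5 member windows held it. It occurred in 23.3% of the 27025 mouse promoter windows of 250 bases. TATAAA, searched for after the windows had been seen, began 31 bases before *S100a4* and 30 bases before *S100a8*, the latter inside the stretch that GENCODE counts as transcribed. It was present in 12.97% of all windows. TGANTCA, the AP-1 type site, was found only in the window of *S100a11*, 136 and 38 bases before its start, and in 6.87% of all windows. Both strands were searched for all 3 motifs. The *S100a6* window held none of them. The *S100a13* window, chr3:90514185-90514434, lies mostly inside the RefSeq gene, which begins at 90514233, so it is not purely upstream.

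The subunits of calprotectin, *S100a8* and *S100a9*, had by far the widest range of level among the 8 members. *S100a8* was measured at 0.969 and 0.149 CPM in Naive 1 and Naive 2, at 1149 and 1142 CPM in Th17 1 and Th17 2, and at 6.78 and 5.75 CPM in Th1 1 and Th1 2. *S100a9* was measured at 0.646 and 0 CPM in Naive, 1039 and 1060 CPM in Th17 and 5.82 and 6.76 CPM in Th1, in the same order of replicates. Both genes were therefore high in both Th17 libraries, low in both Th1 libraries and lowest in Naive, and the libraries of the 3 cell types did not overlap.

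The Naive levels of this pair rested on very few reads. *S100a8* had 66 counts in Naive 1 and 3 counts in Naive 2, and *S100a9* had 44 and 0 counts, so that Naive 2 was at or under the limit of detection for both. In the Th17 libraries *S100a8* had 75087 and 20187 counts and *S100a9* had 67885 and 18741. The means were 1146 ± 4.87 CPM (SD, n = 2) for *S100a8* in Th17 and 6.26 ± 0.723 CPM in Th1, and 1050 ± 15.2 CPM and 6.29 ± 0.670 CPM for *S100a9*.

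On the log2 scale, *S100a8* was higher in Th17 than in Naive by 10.75 (SE 0.67), and *S100a9* by 11.26 (SE 0.81). Th1 also exceeded Naive, by 3.24 (SE 0.52) for *S100a8* and 3.87 (SE 0.64) for *S100a9*. Against Th17, the Th1 log2 fold changes were -7.51 (SE 0.58) and -7.39 (SE 0.68). The differences from Naive depend on Naive 1: without it, the fitted Th17 value was 12.88 for *S100a8*, and that of *S100a9*, 18.24, rests on a library with 0 counts and gives no size. The corresponding Th1 values were 5.37 and 10.84. The Th1 to Th17 difference stayed between -7.64 and -7.28 for both genes whichever library was left out.

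The 2 subunits were present at close to equal counts in the Th cells. *S100a8* made up 52.5% of the pair's counts in Th17 1 (exact 95% binomial interval 52.3 to 52.8) and 51.9% in Th17 2 (51.4 to 52.4). In Th1 it made up 53.8% (50.3 to 57.3) and 46.0% (38.9 to 53.2). In Naive 1 the share was 60.0% of 110 counts (50.2 to 69.2), and the 3 counts of Naive 2 set no useful limit.

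**Figure D1:**
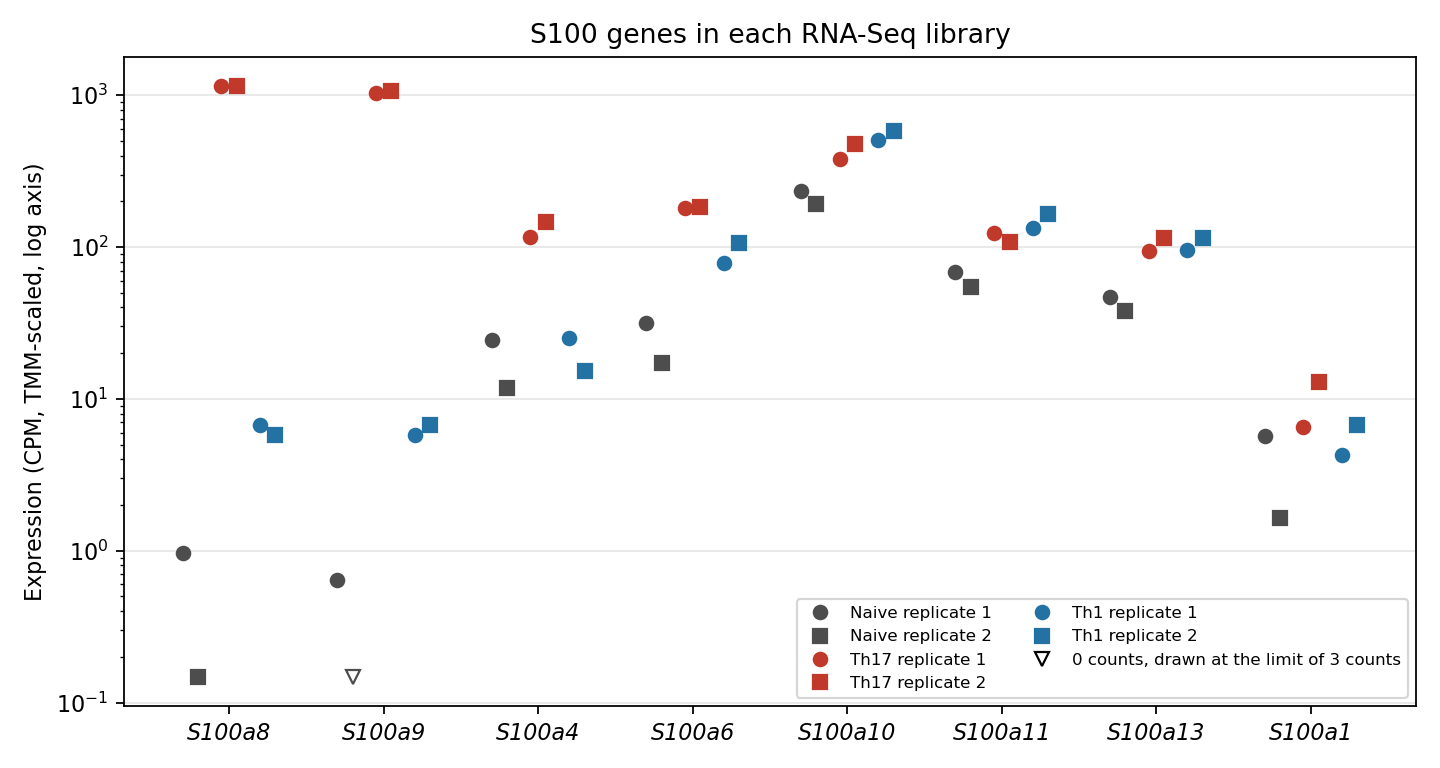
Level of each S100 member in each of the 6 libraries, in CPM on a log axis. Colours mark the cell type, circles replicate 1 and squares replicate 2, and an open triangle marks 0 counts, drawn at the limit of 3 counts. *S100a8* and *S100a9* span from at or under 0.969 CPM in Naive to between 1039 and 1149 CPM in Th17, while *S100a10*, *S100a11* and *S100a13* stay within a narrow band in all libraries.

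*S100a4* and *S100a6*, between which *S100a5* is the only S100 gene on chromosome 3, were also highest in Th17, at lower contrast than the calprotectin pair. S100A4 binds non-muscle myosin and is linked to cell motility, and S100A6 binds the ubiquitin ligase adaptor Cacybp. *S100a4* had 24.4 and 11.9 CPM in Naive, 117 and 145 CPM in Th17 and 25.3 and 15.4 CPM in Th1. Its Th17 libraries were above all others, and its Naive and Th1 libraries overlapped. *S100a4* was higher in Th17 than in Naive by 2.85 (SE 0.40) and lower in Th1 than in Th17, with a log2 fold change of -2.68 (SE 0.40). Its difference between Th1 and Naive was 0.16 (SE 0.38) with TMM scaling and -0.06 with library size alone, so it had no stable direction. Without Naive 1 it was 0.78, and without Naive 2 it was -0.26.

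*S100a6* had 31.9 and 17.3 CPM in Naive, 180.4 and 183 CPM in Th17 and 78.8 and 106 CPM in Th1. Here Th1 lay between Naive and Th17, and no libraries of different cell types overlapped. The log2 fold change was 2.88 (SE 0.34) for Th17 against Naive, 1.90 (SE 0.33) for Th1 against Naive and -0.98 (SE 0.32) for Th1 against Th17.

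*S100a10*, *S100a11* and *S100a13* were measured in all 6 libraries and were higher in both kinds of Th cell than in Naive. S100A10 pairs with annexin A2 at membranes, S100A11 binds annexin A1, and S100A13 takes part in the release of proteins that lack a signal peptide. *S100a10*, the member with the highest CPM in Naive and Th1, had 235 and 192 CPM in Naive, 383 and 476 CPM in Th17 and 510.3 and 585 CPM in Th1. Its Th1 libraries exceeded its Th17 libraries, and both exceeded Naive. *S100a11* had 68.7 and 54.9 CPM in Naive, 123 and 109 CPM in Th17 and 134 and 165 CPM in Th1, in the same order and without overlap. *S100a13* had 46.9 and 37.9 CPM in Naive, 94.9 and 114 CPM in Th17 and 95.04 and 116 CPM in Th1, with the Th17 and Th1 libraries interleaved.

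The differences of these 3 genes from Naive were small and alike. In Th17 the log2 fold change was 1.01 (SE 0.28) for *S100a10*, 0.91 (SE 0.26) for *S100a11* and 1.30 (SE 0.26) for *S100a13*. In Th1 it was 1.36 (SE 0.29), 1.28 (SE 0.26) and 1.31 (SE 0.26). Between Th1 and Th17, *S100a10* differed by 0.35 (SE 0.28), *S100a11* by 0.37 (SE 0.26) and *S100a13* by 0.01 (SE 0.26), and with library size alone these values were 0.14, 0.14 and -0.21. On that scale the Th1 and Th17 libraries of *S100a11* overlapped, with 125.5 and 143 against 134.2 and 108 CPM. *S100a11* has a pseudogene on another chromosome that is not among the genes of the count files.

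*S100a1*, best known from heart muscle, where its protein acts on calcium release channels, had the lowest CPM of the members outside the calprotectin pair. It had 5.69 and 1.63 CPM in Naive, 6.53 and 13.01 CPM in Th17 and 4.25 and 6.70 CPM in Th1. The Th1 libraries overlapped with both other cell types, and its Naive replicates differed 3.48-fold. With library size alone, *S100a1* had 3.98 and 5.78 CPM in Th1 and 7.12 and 12.96 CPM in Th17. On that scale the Th1 and Th17 libraries did not overlap, while those of Th1 and Naive still did. The log2 fold changes were 1.38 (SE 0.60) for Th17 against Naive, 0.54 (SE 0.60) for Th1 against Naive and -0.84 (SE 0.60) for Th1 against Th17. The first of these was 0.76 without Naive 2 and 2.57 without Naive 1, and the Th1 against Naive value was -0.07 without Naive 2 and 1.73 without Naive 1. Between Th1 and Th17 it was -0.26 without Th17 2 and -1.26 without Th17 1.

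**Figure D2:**
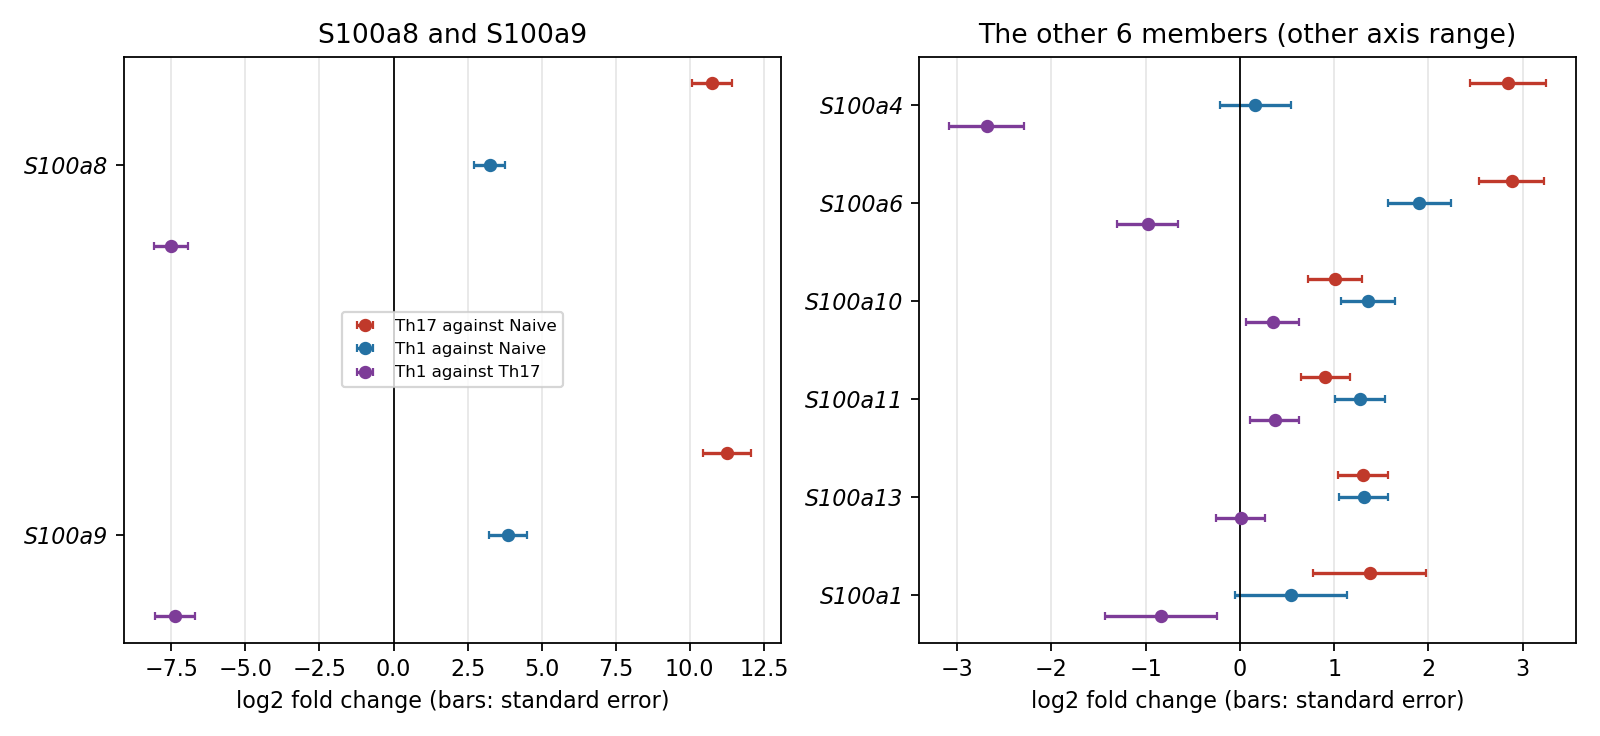
Log2 fold change of each S100 member in the 3 comparisons, with bars of 1 standard error from the edgeR fit of all 6 libraries. The left panel (*S100a8* and *S100a9*) and the right panel (the other 6) have different axis ranges. *S100a8* and *S100a9* stand at 10.75 and 11.26 in Th17 against Naive and at -7.51 and -7.39 in Th1 against Th17, and the other 6 members lie between -2.68 and 2.88.

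The thresholds applied to all tested genes were a Benjamini-Hochberg adjusted p under 0.01 in edgeR's quasi-likelihood test and an absolute log2 fold change above 1. In Th17 against Naive, *S100a4*, *S100a6*, *S100a8* and *S100a9* passed them as higher, 4 of 8, where 5.43% of all tested genes passed in either direction and 4.01% as higher. In Th1 against Naive, *S100a6*, *S100a8*, *S100a9*, *S100a11* and *S100a13* passed, 5 of 8 against a background of 7.45%, or 4.64% for genes called higher. In Th1 against Th17, *S100a4*, *S100a8* and *S100a9* passed as lower, 3 of 8 against 2.83% of genes called lower and 5.53% called in either direction. The members were chosen on these contrasts, so nothing is read from the counts. The count in Th1 against Naive fell to between 2 and 3 when any 1 of the 6 libraries was left out.

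The median log2 fold change of the 8 members was 2.11 in Th17 against Naive, 1.34 in Th1 against Naive and -0.91 in Th1 against Th17. Over all tested genes the medians were -0.02, -0.02 and -0.03. With library size alone, the medians of all genes moved to -0.26 in Th1 against Naive and -0.24 in Th1 against Th17. Between Th17 and Naive the libraries of all 8 members did not overlap, as was true of 65.5% of tested genes. Between Th1 and Naive 6 of 8 did not overlap, against 56%, and between Th1 and Th17 again 6 of 8, against 66.6%.

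All 8 members had a higher CPM in Naive 1 than in Naive 2, while 51.4% of tested genes did. In Th17 and in Th1, 2 of 8 members were higher in replicate 1.

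Summed over the pair, *S100a8* and *S100a9* reached 2188 and 2202 CPM in Th17, 12.6 and 12.5 CPM in Th1, and 1.61 and 0.149 CPM in Naive. The other 6 members summed to 905 and 1041 CPM in Th17, 848 and 994 CPM in Th1, and 412 and 316 CPM in Naive. The pair therefore held 70.7% of the members' counts in Th17 1 (exact 95% binomial interval 70.5 to 70.9) and 67.9% in Th17 2 (67.5 to 68.3). In Th1 it held 1.46% (1.37 to 1.57) and 1.24% (1.08 to 1.43).

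Levels of different members were compared as CPM per kb of transcript, since longer transcripts collect more reads. In Naive the order was *S100a10* at 311 ± 43.9 CPM per kb (SD, n = 2), *S100a11* at 121 ± 19.0, *S100a13* at 59.3 ± 8.90, *S100a4* at 36.4 ± 17.8 and *S100a6* at 33.6 ± 14.1, followed by *S100a1*, *S100a8* and *S100a9*. *S100a4* could not be separated from *S100a6*, nor *S100a8* from *S100a9*, by their libraries.

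In Th17, *S100a8* led with 2357 ± 10.02 CPM per kb and *S100a9* followed with 2022 ± 29.3, above *S100a10* at 627 ± 96.1. *S100a4*, at 264 ± 40.0, was next and overlapped with *S100a6* at 249 ± 2.61, and *S100a1* was last at 14.4 ± 6.77. The lead of *S100a8* over *S100a9* turned when the length of all annotated exons was used, with 1651 against 2011 CPM per kb. With that length *S100a11* at 227 CPM per kb overlapped with *S100a4* at 225, and *S100a13* at 146 overlapped with *S100a6* at 133. In Th1, *S100a10* led again with 799 ± 77.0 CPM per kb, and *S100a8* and *S100a9*, at 12.9 ± 1.49 and 12.1 ± 1.29, overlapped and stood above only *S100a1*. With the length of all exons *S100a9*, at 12.1 CPM per kb, stood above *S100a8* at 9.03, which overlapped with *S100a1* at 7.89.

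**Figure D3:**
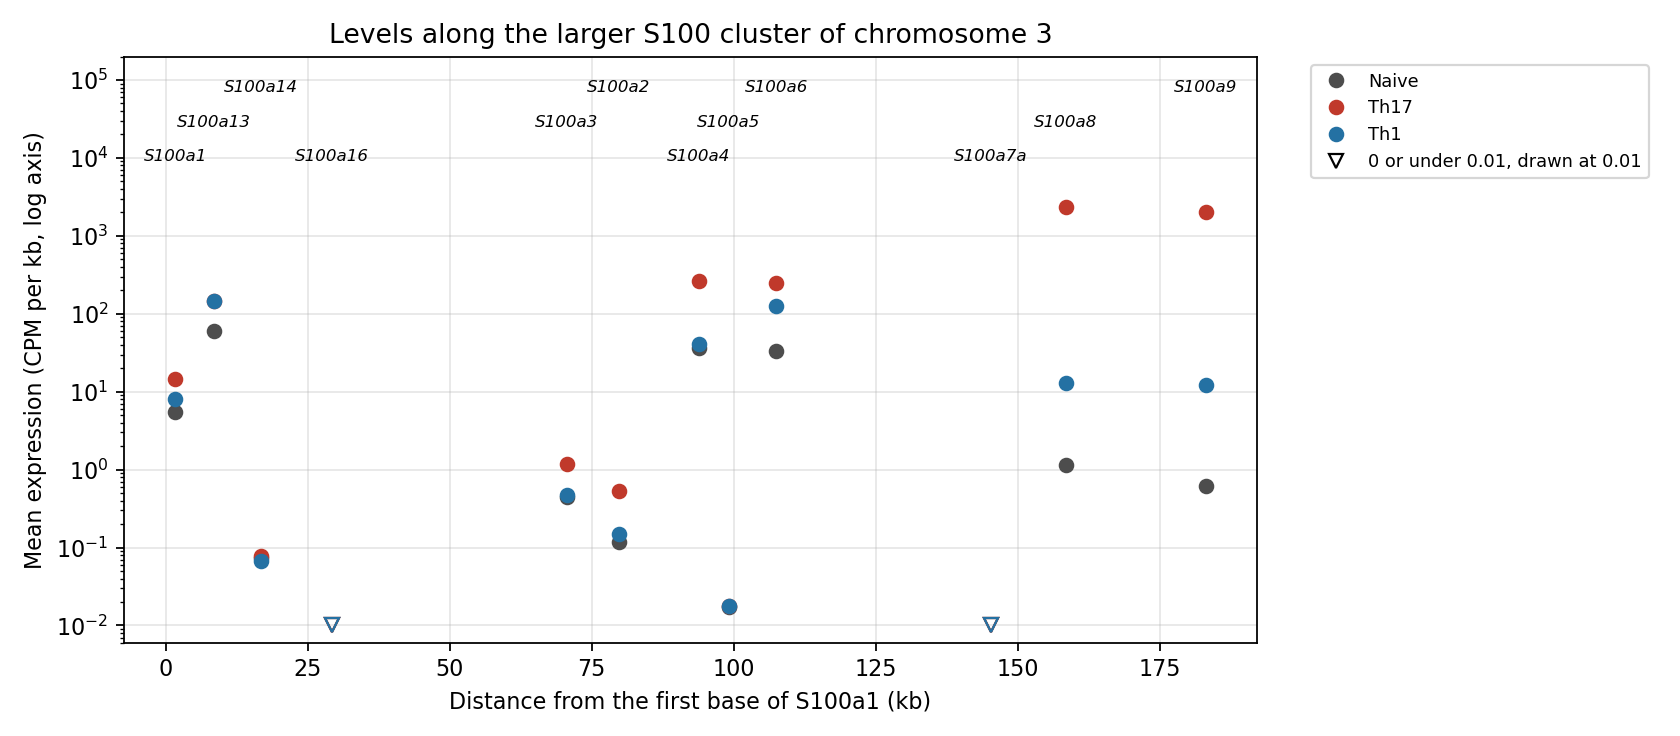
Mean CPM per kb of transcript of the 12 S100 genes between *S100a1* and *S100a9*, on a log axis, against the distance of the gene's middle from the start of the span in kb, coloured by cell type. Open triangles mark genes at 0. In Th17 the level rises to 2357 at *S100a8* and 2022 at *S100a9*, while *S100a7a*, the gene next to *S100a8*, had no count in any library, and points of Th1 cover those of Naive or Th17 where the levels are alike.

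Of the 12 S100 genes in the span of 184688 bases, the 6 that are no members had 75 counts at most in a library. *S100a7a*, whose end lies 10308 bases before *S100a8*, and *S100a16* had no count in any library. *S100a3* had between 4 and 75 counts per library, with 75 and 9 counts in the Th17 libraries, and *S100a2*, which was added after its counts had been seen, had 18 counts at most. *S100a14* had 7 counts at most and *S100a5* had 1. On other chromosomes, *S100b*, *S100g* and *S100z* had no more than 6 counts in a library. *S100a3* was the only one of these genes with enough counts to be tested, and its log2 fold change of 1.33 (SE 0.73) in Th17 against Naive had an adjusted p of 0.23 in edgeR's quasi-likelihood test.

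Markers of other cells were examined beside these levels, since calprotectin is abundant in neutrophils and monocytes. Of 17 neutrophil markers listed, 16 were in the files, and their summed level was 1262 and 1070 CPM in Th17. The sum was 424 and 246 CPM in the Naive libraries, and only 68.6 and 90.6 CPM in the Th1 libraries. In Th17 14 and 12 of the 16 exceeded 10 CPM, against 4 and 4 in Naive and 1 and 3 in Th1. No neutrophil marker was at 0 in Th17, whereas *Ltf*, *Camp* and *Retnlg* were at 0 in Naive 2, *Retnlg* in Th1 1 and *Csf3r* in Th1 2.

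The neutrophil granule gene *Ngp* had 266 and 190.4 CPM in Th17 and at most 12.5 CPM elsewhere. *Chil3*, a gene of neutrophils and macrophages, had 206 and 208 CPM in Th17 and at most 4.43 CPM elsewhere. *Mpo*, myeloperoxidase of early granulocytes, had its highest level in Naive, at 251 and 159 CPM, and 68.1 and 58.7 CPM in Th17. *Cxcr2* was highest in Th1, at 36.2 and 34.9 CPM, against 12.8 and 8.03 CPM in Th17. *Elane*, *Prtn3* and *Ctsg* were not called in Th17 against Naive, with log2 fold changes of 0.19, 0.47 and 0.77. Of the 16 markers, 11 were called higher and 1 lower in Th17 against Naive, 4 were called higher and 6 lower in Th1 against Naive, and 14 were called lower in Th1 against Th17. In either direction 5.43%, 7.45% and 5.53% of all tested genes were called. The medians of the 16 were 4.84, 0.72 and -5.40 on the log2 scale.

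The 11 monocyte and macrophage markers in the files summed to 335 and 918 CPM in Th17. Their sum was 81.3 and 45.2 CPM in the Naive libraries, and 130.4 and 131.0 CPM in those of Th1. Most of the Th1 sum, 115 and 109 CPM, came from *Ly6c2*, and 6 of the 9 tested markers of this list were lower in Th1 against Naive (median log2 fold change -0.61 over the 9). The gene *Lyz2*, for lysozyme of myeloid cells, had 223 and 762 CPM in Th17. The 8 mast cell and basophil markers summed to 214 and 452 CPM in Th17, against 45.0 and 12.0 in Naive and 58.9 and 43.7 in Th1. *Lyz2*, which made up most of the monocyte and macrophage sum in Th17, and both summed levels were at least 2-fold higher in Th17 2 than in Th17 1. The neutrophil sum was 1262 CPM in Th17 1 and 1070 CPM in Th17 2. *S100a8* and *S100a9* differed by 1.02-fold at most between these libraries. B cell markers summed to 24.3 and 18.9 CPM in Th17, against 12.7 and 7.08 in Naive and 2.88 and 3.29 in Th1. CD8 T cell and NK cell markers summed to 28.1 CPM at most. Erythroid markers summed to 174 and 24.6 CPM in Naive and 3.56 CPM at most in Th cells, with the 4 haemoglobin genes at 0 in all libraries. The part of these cells in the levels of *S100a8*, *S100a9* or other members was not tested.

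**Figure D4:**
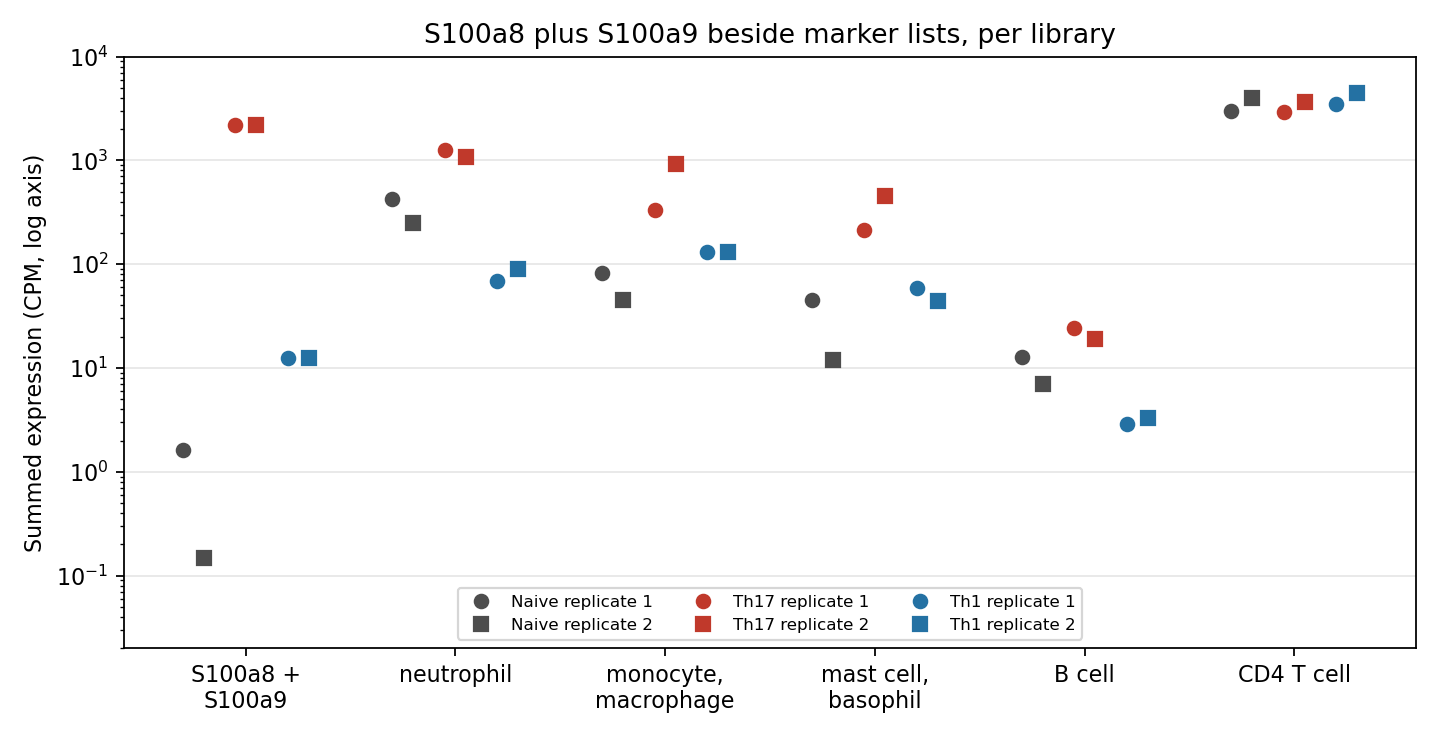
Summed CPM of *S100a8* and *S100a9* and of 5 marker lists, per library on a log axis, with circles for replicate 1 and squares for replicate 2. The pair and the neutrophil, macrophage, mast cell and B cell lists are highest in the Th17 libraries, and the T cell list lies between 2928 and 4462 CPM in all 6 libraries.

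The genes with the pattern most like that of the pair were found by Pearson's r of log2 CPM with the mean of *S100a8* and *S100a9* over the 6 libraries, among 9787 genes. They were *Ifitm6* (r = 0.998), *2010005H15Rik* (0.997), *Ltf* (0.997), *Il13* (0.997) and *Rilpl2* (0.996). *Ltf*, lactoferrin of neutrophil granules, had 214 and 150.0 CPM in Th17 and 1.39 CPM at most elsewhere, whereas *Il13*, a cytokine gene of Th2 cells, mast cells and basophils, had 23.1 and 20.7 CPM in Th17 and 1.08 CPM at most elsewhere. *Rilpl2* differed far less in level, with 156 and 154 CPM in Th17 and 40.8 to 78.2 CPM elsewhere. For *S100a4* and *S100a6* the most alike were *Alox5* (0.997), *Snapc3* (0.996), *Ifitm6* (0.996), *Anxa1* (0.995) and *Capg* (0.995). With 6 libraries in 3 tight groups, such values describe a ranking only.

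Annexins and other proteins that bind S100 proteins were listed separately, and 16 of 19 such genes could be tested. In edgeR's quasi-likelihood test 3 of the 16 (18.8%) rose in Th17 against Naive, 1 (6.25%) rose in Th1 against Naive, and in Th1 against Th17 1 was higher and 2 were lower. Over all tested genes the shares called were 5.43%, 7.45% and 5.53%. The medians of the 16 log2 fold changes were 0.76, 0.38 and -0.21, beside -0.02, -0.02 and -0.03 for all genes. The last count was 1 without Th17 2, Th1 1 or Th1 2, and the second was 2 without Naive 1 or Naive 2. *Anxa1*, partner of S100A11, had 10.6 and 4.46 CPM in Naive, 117 and 207 CPM in Th17 and 26.3 and 22.8 CPM in Th1. It was higher in Th17 than in Naive by 4.40 (SE 0.47, adjusted p = 4.3e-04) and lower in Th1 than in Th17 with a log2 fold change of -2.72 (SE 0.43, adjusted p = 0.0034).

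*Anxa2*, partner of S100A10, had 53.7 and 36.6 CPM in Naive, 210.4 and 232 CPM in Th17 and 306 and 326 CPM in Th1. It rose in Th17 by 2.29 (SE 0.29, adjusted p = 9.8e-04) and in Th1 by 2.81 (SE 0.30, adjusted p = 3.2e-04) against Naive, and the difference of 0.52 (SE 0.28) between Th1 and Th17 did not pass (adjusted p = 0.22). *Ahnak*, a giant scaffold protein bound by the annexin A2 and S100A10 complex, was not called in any comparison, with log2 fold changes of -0.22, 1.08 and 1.30. *Anxa3*, with 15.1 and 20.5 CPM in Th17, was higher there than in Naive by 2.64 (SE 0.49, adjusted p = 0.0068) and lower in Th1 than in Th17, with a log2 fold change of -4.66 (SE 0.55, adjusted p = 7.7e-04). *Anxa6* had 1238 and 1413 CPM in Th1 and 423 and 323 CPM in Th17, a difference of 1.83 (SE 0.31, adjusted p = 0.0043).

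All 12 listed receptors of extracellular S100 proteins and their adaptors were tested. In Th17 against Naive 5 of 12 (41.7%) rose, in Th1 against Naive 1 (8.33%) rose, and in Th1 against Th17 2 (16.7%) fell, with medians of 0.95, 0.92 and -1.07. Of all tested genes 4.01% rose, 4.64% rose and 2.83% fell in these comparisons. The first count was 1 without Naive 1 or Th17 2 and 2 without Naive 2 or Th17 1. The second was 0 without any 1 library, and the last was 0 without Th1 1 and 1 without Th1 2 or either Th17 library. *Emb*, embigin, a reported receptor of S100A8 and S100A9, had 199 and 245 CPM in Naive, 808 and 974 CPM in Th17 and 435 and 508 CPM in Th1, and rose in Th17 by 2.01 (SE 0.30, adjusted p = 0.0022). *Myd88*, the adaptor of Toll-like receptors, rose in Th1 by 1.28 (SE 0.25, adjusted p = 0.0068), from 81.0 and 81.6 CPM to 189 and 204 CPM.

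The other 4 receptor genes that rose in Th17 had low levels. *Tlr4*, the receptor of S100A8 and S100A9 on myeloid cells, had 0.499 and 0.743 CPM in Naive, 3.67 and 7.41 CPM in Th17 and 0.248 and 0.190 CPM in Th1. It was higher in Th17 than in Naive by 3.18 (SE 0.59, adjusted p = 0.0073) and lower in Th1 than in Th17, at -4.58 on the log2 scale (SE 0.65, adjusted p = 0.0020). *Cd14*, *Cd33* and *Mcam*, named here after their values were seen, reached at most 4.07, 10.1 and 5.65 CPM. *Tlr4*, *Cd14* and *Cd33* are genes of myeloid cells. In Th17 against Naive, 11 of 16 neutrophil markers were called higher and 1 lower. Of the 9 tested monocyte and macrophage markers, 4 were called higher, where 4.01% of all tested genes were. The part of such cells in the levels of these receptor genes was not tested. *Ager*, which encodes the receptor RAGE, had 6.34 to 16.8 CPM over the 6 libraries and was not called in any comparison.

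**Figure D5:**
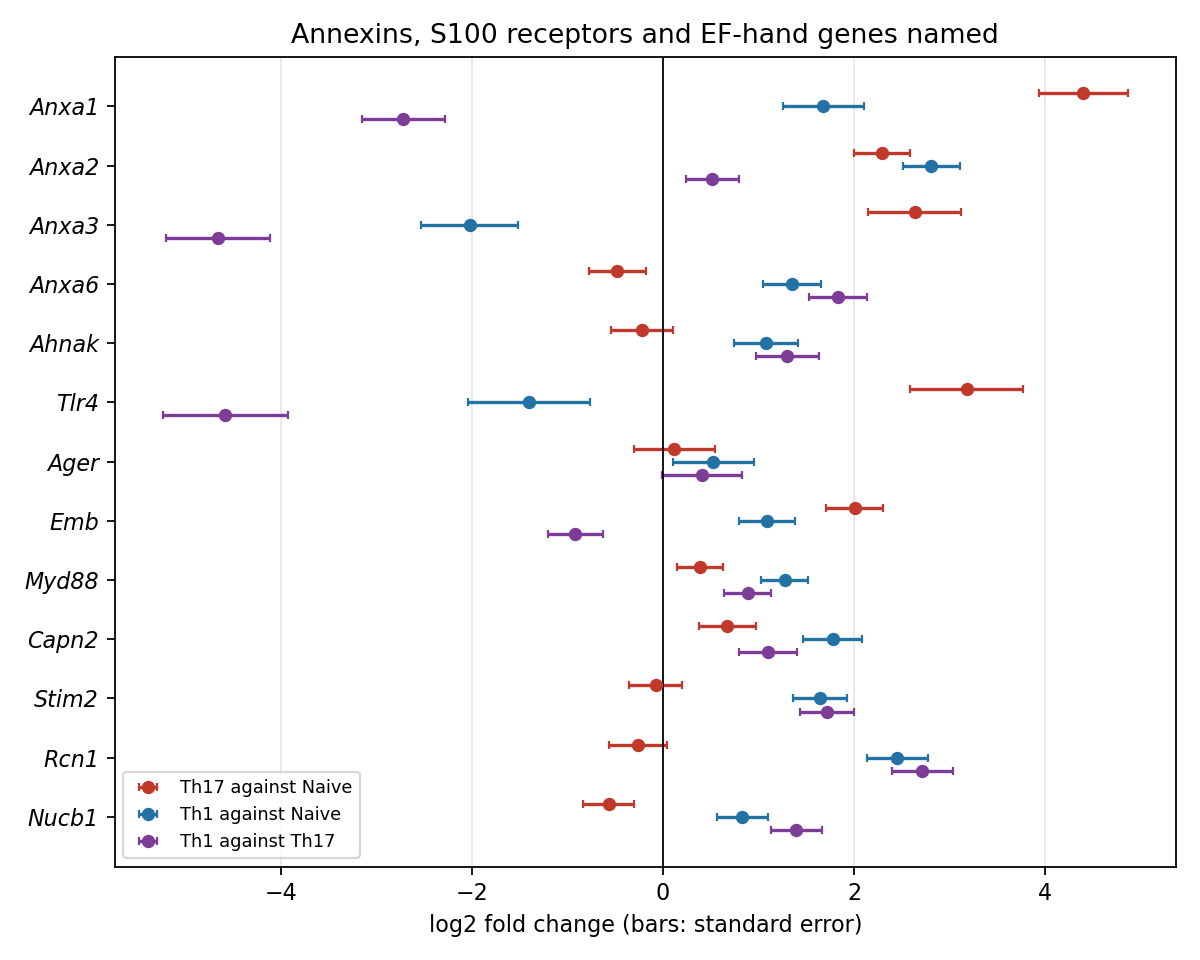
Log2 fold change of the 13 genes named from the lists of annexins, receptors and EF-hand proteins in the 3 comparisons, with bars of 1 standard error. *Anxa1* at 4.40 in Th17 against Naive, and *Anxa3* at -4.66 and *Tlr4* at -4.58 in Th1 against Th17, lie farthest from 0 among the genes drawn.

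Other genes with EF hands, the calcium-binding loop of the family, were listed as well. Of 32 listed, 30 were tested, and 1 (3.33%) was called in Th17 against Naive, 3 (10%) in Th1 against Naive and 4 (13.3%) in Th1 against Th17, where 5.43%, 7.45% and 5.53% of all tested genes were. The first count was 0 without Naive 2 or either Th17 library. The second was 1 without Naive 1 or Th1 2 and 2 without Th1 1, and the last was 0 without Th17 1, 1 without Th17 2 or Th1 2 and 2 without Th1 1. *Rcn1*, a calcium-binding protein of the endoplasmic reticulum, had 28.0 and 25.7 CPM in Naive, 22.2 and 22.6 CPM in Th17 and 106 and 188 CPM in Th1. It rose in Th1 by 2.45 (SE 0.32, adjusted p = 9.4e-04) against Naive and by 2.71 (SE 0.32, adjusted p = 7.8e-04) against Th17. *Stim2*, a sensor of stored calcium, rose in Th1 by 1.64 (SE 0.28, adjusted p = 0.0039) and 1.72 (SE 0.28, adjusted p = 0.0040). *Capn2*, a calcium-activated protease, rose in Th1 against Naive by 1.78 (SE 0.31, adjusted p = 0.0041), and *Nucb1*, a calcium-binding protein of the Golgi, was higher in Th1 than in Th17 by 1.40 (SE 0.27, adjusted p = 0.0088). *Gca*, named after its value was seen, was the gene called in Th17, at 5.72 and 8.66 CPM.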

How the data were processed

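RNA-Seq counts of 6 mouse libraries (Naive, Th17 and Th1 cells, 2 replicates each) were used. The authors mapped reads to mm10 with HISAT2 2.2.1 and counted them per gene with HTSeq 0.13.5, and the deposited values are raw counts without normalization. Removal of duplicates is stated in the methods, with HTSeq run with default parameters, whereas the supplementary code holds no such removal and counts reverse-stranded reads. cDNA was made by Smart-seq2.

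The counts were compared using edgeR 4.0.16 in R 4.3.3 (filterByExpr, TMM, quasi-likelihood test, cell type as the only term, all 6 libraries in one model) and Benjamini-Hochberg adjustment over 13607 genes. A call required an adjusted p-value below 0.01 and a log2 fold change beyond 1 in either direction. TMM factors were 0.862 to 1.09, with a prior count of 2 for log2 CPM. The length behind CPM per kb is that of the longest GENCODE vM21 transcript matched to RefSeq. DESeq2 1.42.0 and other settings were alternatives, and the model was tested on simulated data. The replicates are described as independent, and p-values measure the spread between 2 libraries per cell type. Reads are not independent molecules, so intervals cover counting error only.

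The members and gene lists were chosen with earlier results of these data known. Named from each list were up to 3 called genes per comparison with the largest change and at least 10 CPM, together with *Anxa1*, *Anxa2*, *Ahnak*, *Tlr4* and *Ager*. From the marker lists, genes among the 3 of highest level were named, and markers at 0. *Cxcr2*, *Elane*, *Prtn3* and *Ctsg* were named after their values were seen. *Ly6g* and *Adgre1* were not analysed here.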

Additional observations from a re-analysis of the deposited data

Results flagged for a closer look

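Among the genes named from the partner lists, 5 had both Th17 libraries on one side of both Naive libraries and both Th1 libraries on the other side. The share of all tested genes with this pattern was not computed, so nothing is read from the count. Libraries did not overlap for 65.5% of tested genes in Th17 against Naive, 56% in Th1 against Naive and 66.6% in Th1 against Th17. For these 5 the difference between Th1 and Th17 passed edgeR's quasi-likelihood test. *Anxa3*, *Anxa6*, *Rcn1* and *Nucb1* were among the genes picked for naming by that call. All 5, *Tlr4* included, were flagged because their Th17 and Th1 libraries lay apart, so no pass adds support. *Anxa3* had a log2 fold change of 2.64 in Th17 and -2.02 in Th1, and *Tlr4* had 3.18 and -1.40. *Rcn1* had -0.26 in Th17 and 2.45 in Th1, *Anxa6* had -0.48 and 1.35, and *Nucb1* had -0.57 and 0.83. Both changes of each gene are measured against the same 2 Naive libraries. Against Naive, *Anxa3* and *Tlr4* were called only in Th17, *Rcn1* only in Th1, and *Anxa6* and *Nucb1* in neither.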

How the results depend on the processing

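Results were recomputed with DESeq2, with RLE factors or library size alone in place of TMM, unfiltered, with a minimum of 10 counts in every library, with a replicate block, on only the 4 libraries of a comparison, after thinning to the lowest depth and with each library left out in turn, with the lone replicate assumed to vary like the other groups. Counts of called genes follow in the order Th17 against Naive, Th1 against Naive, Th1 against Th17. Over all tested genes they were 739, 1014 and 752, against 1717, 1917 and 1797 with DESeq2 and 2154, 2259 and 2232 without a filter. For the S100 members (4, 5 and 3), DESeq2 gave 6, 5 and 3, and RLE factors or no filter gave 5, 6 and 3. At least 10 counts gave 2, 1 and 1, with *S100a8* and *S100a9* no longer tested. Only the 4 libraries gave 5, 1 and 3, thinning 5, 2 and 3, and library size alone 4, 2 and 3.

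Annexins and S100-binding genes (3, 1 and 3) numbered 5, 4 and 5 with DESeq2, 5, 6 and 5 without a filter, and 2 to 4, 1 to 2 and 1 to 3 with a library left out, the highest of the second without Naive 1 or Naive 2 and the lowest of the third without Th17 2, Th1 1 or Th1 2. Receptors (5, 1 and 2) numbered, in the first comparison, 3 with library size alone, 2 with at least 10 counts, 2 with thinning and 1 to 5 with a library left out, the lowest without Naive 1 or Th17 2. In the second they numbered 2 with DESeq2 and 0 with library size alone, only the 4 libraries, thinning or any library left out, and in the third 4 with DESeq2, 4 without a filter, 0 with at least 10 counts and 0 to 2 with a library left out, 0 without Th1 1. Other EF-hand genes (1, 3 and 4) numbered, in the first, 2 with DESeq2, 4 without a filter, 0 with at least 10 counts, 0 with thinning and 0 to 1 with a library left out, 0 without Naive 2 or either Th17 library. In the second they numbered 1 with library size alone and 1 to 3 with a library left out, 1 without Naive 1 or Th1 2, and in the third 7 with DESeq2, 2 with library size alone, at least 10 counts or thinning, and 0 to 4 with a library left out, 0 without Th17 1. The causes of these changes were not tested.

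Deviations of same-numbered libraries from their group means were compared over all tested genes. The r was -0.231 for Naive and Th17, 0.168 for Naive and Th1 and 0.0766 for Th17 and Th1. Same-numbered libraries share more than a number, since replicate 1 was the deeper one in each cell type. Whether they also shared a batch was not tested. The replicate block gave 1035, 1402 and 1041 calls over all genes, 4, 5 and 3 members and 2 annexins in Th1 against Naive. Of the named list genes' values, 14 settings each (13 for *Tlr4* and *Anxa3*), *Anxa1* and *Anxa2* in Th17 and *Anxa2* and *Rcn1* in Th1 against Naive were called in 14, with adjusted p up to 0.0062, while *Tlr4* in Th17 was called in 7 (adjusted p 2.1e-05 to 0.086), *Anxa3* in 8 (1.3e-06 to 0.049), *Myd88* in Th1 in 5 (2.6e-06 to 0.038), *Capn2* in Th1 in 10 (9.7e-07 to 0.029), *Stim2* in 11 against Naive and 10 against Th17 (1.1e-06 to 0.042), *Emb* in 12 (6.1e-11 to 0.015), *Anxa6* in Th1 against Th17 in 9 (3.7e-09 to 0.059), and there *Anxa1* in 11 (up to 0.023), *Tlr4* in 10 (up to 0.018), *Anxa3* and *Rcn1* in 13 each (up to 0.011) and *Nucb1* in 7 (8.2e-06 to 0.093). With 2 libraries per cell type and 3 or fewer counts of *S100a8* and *S100a9* in Naive 2, the size of their difference from Naive is poorly set, and thinning moved that of *S100a8* in Th17 from 10.75 to 12.79.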
